A study of Mus musculus with 15 samples.

Results

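The genes described here encode proteins that copy DNA in S phase or separate chromosomes in mitosis. They were chosen by name, with earlier results of these data known: 47 mouse genes, 19 for replication and 28 for mitosis. Of these, 36 had a probe listed, and 34 passed the filter on dim probes, 17 of each class, among 7669 genes tested of 10900 listed. Gins2, Ccna2, Ccnb1, Ccnb2, Cks1b, Cks2, Ube2c, Bub1, Aurkb, Racgap1 and Mki67 had no listed probe and were not analysed here. Prim1, the small primase subunit, and Kif20a, a kinesin of cytokinesis, had a probe that was detected on 0 arrays. Each gene was read from 1 probe, the one with the highest mean signal. The filter kept a probe detected on every array of at least 1 group, so a gene could pass through the group in which it was bright.

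Macrophages grown from the bone marrow of C57Bl/6 mice were profiled with Illumina bead arrays, where the brightness of a probe reports the RNA bound to it. The 15 arrays fell into 6 groups: 3 controls without interferon or LPS, 3 with IFNγ, 2 with IFNβ (IFNb in the labels), 2 with LPS alone, 3 with IFNγ then LPS and 2 with IFNβ then LPS. Interferon was given for 18 h, and LPS, the endotoxin of Gram-negative bacteria, for the last 6 h. Its labelled dose was 10 ng/µl, whose unit is uncertain. No interferon dose was recorded here, nor whether cells without LPS were kept for the same total time. All groups shared strain and cell type. Separate mice or cultures for the arrays of a group are not recorded in the labels, so p-values reflect array-to-array spread alone, possibly a technical one.

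Macrophages in marrow culture divide under macrophage colony-stimulating factor, and activation by LPS or IFNγ is known to stop them in G1. In G1 the MCM helicase is loaded onto origins by Cdc6 and Cdt1. In S phase PCNA, flap endonuclease and ligase complete the new strands, and ribonucleotide reductase, thymidine kinase and thymidylate synthase supply nucleotides. Many replication genes are activated by E2F factors, which the retinoblastoma family restrains. Mitosis genes come on later, mostly through the MuvB complex, which with B-Myb and FoxM1 acts at a promoter element called the CHR and at the CCAAT boxes bound by NF-Y. DREAM, the repressor form of MuvB with the p107 or p130 pocket protein, silences both classes in resting cells.

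Promoter windows differed between the classes, most clearly in the CHR word near the annotated start. RefSeq sequences on GRCm38.p6, from 250 bases before to 50 bases after an annotated start, were matched by symbol for 32 of the 34 tested genes, in 38 windows. Mcm4 and Stmn1 had no window. A CHR word, TTTGAA or TTCGAA on either strand, lay in 14 of 17 mitosis windows (82.4%) and in 3 of 21 replication windows (14.3%), against 19.2% of all 32851 windows. Within 50 bases of the start it lay in 14 of 17 mitosis windows (82.4%) and 0 of 21 replication windows, against 5.31% of all windows. The CCAAT word, on either strand, was present in 14 mitosis windows (82.4%), 11 replication windows (52.4%) and 37.4% of all windows, and CHR and CCAAT together in 82.4%, 9.52% and 7.52%. E2F words were the reverse: TTTCCCGC, TTTGGCGC, TTTCGCGC or TTTGCCGC on either strand lay in 8 replication windows (38.1%), 1 mitosis window (5.88%, that of Cdk1) and 2.26% of all windows. E2F words may overlap each other, and a match is a run of letters, not a measured binding site.

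Printed 5′ to 3′ along the gene, with matched words in capitals, are the windows of Uhrf1 (chr17:56304063-56304362, plus strand), Mcm5 (chr8:75109259-75109558, plus) and Mcm6 (chr1:128359656-128359955, minus), which hold E2F and CCAAT words. Cdc20 (chr4:118437294-118437593, minus), Kif22 (chr7:127042371-127042670, minus) and Prc1 (chr7:80294201-80294500, plus) hold CHR and CCAAT words. The window of Pcna (chr2:132253131-132253430, minus), which did not fall with LPS, is also shown. Where a gene had several windows, the one with most E2F words (replication) or CHR words (mitosis) is shown.
Uhrf1: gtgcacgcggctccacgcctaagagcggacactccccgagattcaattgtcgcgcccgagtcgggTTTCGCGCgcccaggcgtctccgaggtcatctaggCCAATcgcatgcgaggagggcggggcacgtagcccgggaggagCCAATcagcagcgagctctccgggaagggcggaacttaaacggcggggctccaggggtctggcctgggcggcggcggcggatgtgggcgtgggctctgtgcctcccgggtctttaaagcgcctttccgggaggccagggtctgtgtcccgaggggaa
Mcm5: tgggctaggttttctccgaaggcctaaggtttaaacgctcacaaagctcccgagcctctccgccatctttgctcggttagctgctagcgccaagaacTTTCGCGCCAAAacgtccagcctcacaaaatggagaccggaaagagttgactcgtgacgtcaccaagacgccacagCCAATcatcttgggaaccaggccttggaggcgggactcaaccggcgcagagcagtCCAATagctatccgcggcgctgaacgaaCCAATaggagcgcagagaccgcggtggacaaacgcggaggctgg
Mcm6: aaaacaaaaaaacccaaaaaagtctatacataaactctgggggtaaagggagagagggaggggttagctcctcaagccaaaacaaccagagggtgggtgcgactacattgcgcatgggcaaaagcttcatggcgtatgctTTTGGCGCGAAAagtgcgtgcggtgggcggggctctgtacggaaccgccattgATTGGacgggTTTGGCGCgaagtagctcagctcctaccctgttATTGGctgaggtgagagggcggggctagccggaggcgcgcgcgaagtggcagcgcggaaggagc
Cdc20: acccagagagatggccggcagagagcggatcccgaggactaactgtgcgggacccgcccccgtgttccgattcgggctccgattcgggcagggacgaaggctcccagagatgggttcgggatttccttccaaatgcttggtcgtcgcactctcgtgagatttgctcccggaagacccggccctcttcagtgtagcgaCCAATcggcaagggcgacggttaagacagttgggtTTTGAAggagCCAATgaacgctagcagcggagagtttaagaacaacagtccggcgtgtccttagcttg
Kif22: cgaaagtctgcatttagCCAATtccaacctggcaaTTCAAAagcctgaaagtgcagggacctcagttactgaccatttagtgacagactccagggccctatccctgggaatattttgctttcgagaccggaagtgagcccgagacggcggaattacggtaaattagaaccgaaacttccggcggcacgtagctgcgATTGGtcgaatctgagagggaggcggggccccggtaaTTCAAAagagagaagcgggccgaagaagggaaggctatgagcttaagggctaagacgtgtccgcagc
Prc1: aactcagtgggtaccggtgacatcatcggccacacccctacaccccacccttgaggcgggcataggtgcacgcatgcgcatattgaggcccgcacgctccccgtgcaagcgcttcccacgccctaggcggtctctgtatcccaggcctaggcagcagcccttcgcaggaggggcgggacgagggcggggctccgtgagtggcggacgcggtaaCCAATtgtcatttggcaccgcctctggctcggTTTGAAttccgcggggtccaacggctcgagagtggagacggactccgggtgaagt
Pcna: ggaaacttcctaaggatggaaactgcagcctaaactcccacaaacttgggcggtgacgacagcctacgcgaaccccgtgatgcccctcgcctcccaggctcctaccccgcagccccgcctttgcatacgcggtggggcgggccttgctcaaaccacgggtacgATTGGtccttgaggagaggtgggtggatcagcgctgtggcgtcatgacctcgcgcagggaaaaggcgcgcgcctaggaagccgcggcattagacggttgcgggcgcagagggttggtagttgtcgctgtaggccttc
In Mcm5 the words TTTCGCGC and GCGCCAAA overlap in 1 run that starts 153 bases before the annotated start. In Mcm6 E2F words start 110, 106 and 47 bases before it. The CHR words nearest the start begin 18 bases before it in Cdc20, 17 in Kif22 and 5 in Prc1, each with a CCAAT word upstream, at 53, 54 and 37 bases before the start. The Pcna window held a CCAAT word and none of the searched E2F or CHR words. The same held for the windows of Rrm1 and Rrm2, which fell with LPS (-2.04 and -1.87). Tk1, Tyms and Dut also fell (-3.01, -1.06 and -0.66), and their windows held no searched word. Whether these words bear on the fall was not tested.

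The median raw intensity of an array was 143 to 241. Every array with LPS detected fewer of the 15978 probes (9342 to 9963) than any without (10250 to 11047), and its median signal over background was lower (1.42 to 1.61 against 1.67 to 1.82). The part of this in the falls with LPS was not tested. Arrays of a group correlated at 0.979 to 0.993 across genes. Array 1 of the IFNγ group and array 1 of the IFNγ plus LPS group lay farthest from their companions, with a root mean square deviation of 0.276 and 0.285 log2 units. All 7 arrays with LPS were on one slide and all 8 without on the other, so LPS and slide cannot be told apart. All 9 listed macrophage markers with a probe, among them Adgre1, Mertk and Fcgr1, were detected on every array of each group, except that Itgam was not on every array of IFNγ plus LPS. Precision is limited by how few arrays there are. Levels below are log2 intensities, comparable across arrays for 1 probe but not between probes.

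With LPS alone, levels of nearly the whole machinery were lower. Of the 34 genes, 32 fell, 16 of 17 for replication and 16 of 17 for mitosis, and 0 rose, in the limma fit across all genes at an adjusted p under 0.05. Of all genes tested, 34.0% were called lower and 21.2% higher. The median log2 difference was -2.04 for replication and -2.57 for mitosis, against -0.17 for all genes. In 32 of 34 genes no LPS array overlapped a control array. That count was not made over all genes, so it cannot set these genes apart from others. Less RNA per cell and fewer dividing cells cannot be told apart in such bulk samples. The 9 macrophage markers summed to 80900 to 82600 linear units in controls and 91900 to 99200 with LPS. The 3 marrow progenitor markers with a probe (Cd34, Prtn3, Elane) summed to 101 to 125 and 99.7 to 99.8, with 0 of 3 detected on either array of LPS alone. Neutrophil markers, 7 of 10 with a probe, summed to 2560 to 2930 and 5130 to 5150. Of these, Lcn2, an LPS-induced gene of macrophages too, was 21.6-fold higher. By limma Camp was also higher (0.77, adjusted p = 0.0187) and Mmp9 was lower (-0.95, adjusted p = 0.038). S100a8, S100a9, Ngp and Ltf were not called. T and NK cell markers, 3 of 9 with a probe, summed to 2780 to 3060 in controls and 285 to 312 with LPS. That sum followed Cd28 (12.4-fold lower, adjusted p = 2.23e-10), while Cd3e and Klrb1c were detected on no array of either group. The part of cell makeup in the fall was not tested.

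**Figure D1:**
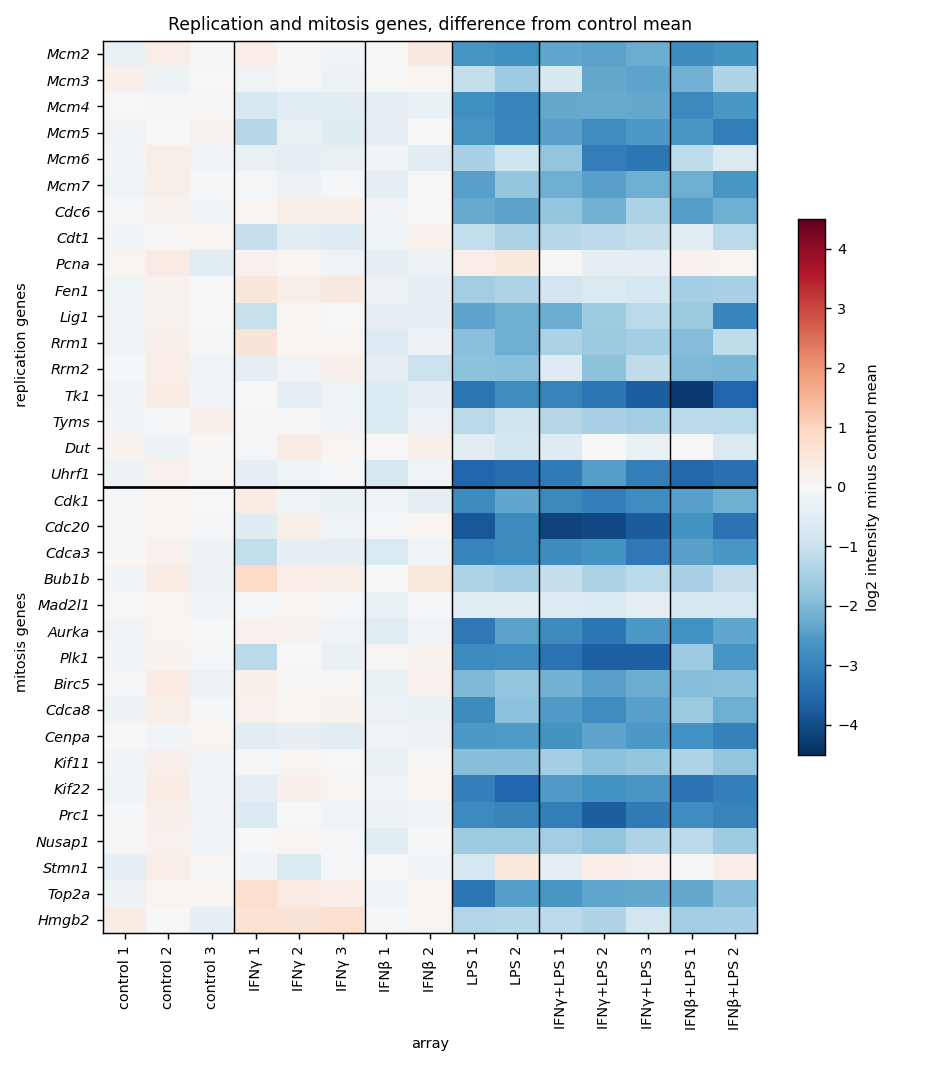
Log2 intensity of each of the 34 tested genes (rows, replication above the line and mitosis below) on each of 15 arrays (columns, grouped by treatment), minus the mean of the 3 control arrays. The 7 LPS arrays are blue, meaning lower, in nearly every row, and the rows of Pcna and Stmn1 stay pale.

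All 6 MCM helicase genes fell. Mcm4 stood at 11.04, 10.95 and 11.10 in controls and at 8.27 and 8.06 with LPS. That gap is 2.87 log2 units (SE 0.142, adjusted p = 7.2e-10), a 7.29-fold fall, and the arrays of each group lie close together. Mcm5 read 10.35, 10.47 and 10.67 in controls and 7.85 and 7.57 with LPS, a 6.89-fold fall. Mcm2 was detected on 3 of 3 control arrays and on 0 of 2 LPS arrays, which makes the fall at least 3.07-fold, and Mcm7, likewise undetected with LPS, fell at least 2.88-fold. Mcm3 fell 2.56-fold, with 1 of 2 LPS arrays detected. Mcm6 changed least of the 6 in the log2 difference, from 9.83, 10.19 and 9.79 to 8.48 and 9.04 (fell by 1.18, SE 0.346, adjusted p = 0.0101). The LPS arrays of Mcm6 were well apart but both below every control.

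Both loading factors fell. Cdc6, which brings the helicase to the origin complex, was undetected on both LPS arrays and fell at least 3.12-fold. Cdt1, its partner, went from 10.34, 10.53 and 10.56 to 9.35 and 9.07, a 2.40-fold fall (adjusted p = 0.000277). At the fork, Fen1, the flap endonuclease of lagging-strand synthesis, read 10.50, 10.86 and 10.71 in controls and 9.11 and 9.32 with LPS. This is a 2.79-fold fall with no overlap. Lig1, the ligase that seals the fragments, fell 4.89-fold by its brightest probe, but only 2 of its 4 kept probes were called, and the 4 ranged from -2.29 to 0.23, so its size is uncertain.

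Pcna, the sliding clamp, was the exception among replication genes. Its controls read 8.52, 8.76 and 7.94 and its LPS arrays 8.69 and 8.83, so the groups overlapped. The difference was 0.35 (95% interval -0.12 to 0.83, adjusted p = 0.188), and it was called higher under cyclic loess scaling alone, at 0.55 (adjusted p = 0.0469), among 16 alternatives.

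Nucleotide supply genes fell by unequal amounts. Tk1, thymidine kinase, went from 8.96, 9.44 and 8.95 to 5.88 and 6.34, an 8.04-fold fall (adjusted p = 2.41e-07). Its second kept probe also fell, by 1.22 log2 units. Rrm1, the large subunit of ribonucleotide reductase, read 9.04, 9.42 and 9.14 in controls and at most 7.31 on the LPS arrays, a 4.12-fold fall. The gap between the groups was wider than the range of the controls. Rrm2, its S-phase subunit, fell at least 3.16-fold because both LPS arrays were undetected. Tyms, thymidylate synthase, moved from 8.66, 8.68 and 8.99 to 7.56 and 7.88, a 2.09-fold fall. Dut, the dUTPase, was near background throughout, detected on 2 of 3 control arrays and 0 of 2 LPS arrays, and its fall of 0.66 (adjusted p = 0.0256) carries no bound on the fold. Uhrf1, which guides maintenance DNA methylation behind the fork, had the largest difference of the 34. It stood at 9.71, 10.11 and 9.98 in controls and at 6.37 and 6.49 with LPS, an 11.3-fold fall (SE 0.224, adjusted p = 1.01e-08).

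Mitotic entry and exit genes fell with LPS. Cdk1, the mitotic kinase subunit that partners the B-type cyclins, read 10.07, 10.25 and 10.14 in controls and 7.33 and 7.81 with LPS, a 6.00-fold fall. Cdc20, an activator of the anaphase-promoting complex, went from 9.10, 9.25 and 9.06 to 5.33 and 6.26. That fall of 3.34 (10.1-fold, SE 0.284), by its brightest probe, was the largest measured among mitosis genes, with 1 of 2 LPS arrays detected. The 4 kept probes of Cdc20, all called lower, ranged from -3.34 to -1.99, so the size is uncertain. Cdca3, a trigger of mitotic entry, went from 10.43, 10.56 and 10.13 to 7.40 and 7.52, a 7.54-fold fall. The kinases Plk1 and Aurka fell 7.06-fold and 7.02-fold. Plk1 read 9.11, 9.37 and 9.17 in controls and 6.38 and 6.41 with LPS, and Aurka was detected on 1 of 2 LPS arrays. Birc5 read 9.54, 10.01 and 9.37 in controls and 7.63 and 7.91 with LPS. Birc5 (survivin) and Cdca8 (borealin), subunits of the chromosomal passenger complex, fell 3.65-fold and 5.07-fold, Cdca8 with 1 of 2 LPS arrays detected.

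Cenpa, the histone H3 variant of centromeres, read 13.30, 13.16 and 13.40 in controls and 10.72 and 10.73 with LPS, a 5.92-fold fall in which the LPS arrays nearly coincide. The checkpoint genes moved less. Bub1b (BubR1) was undetected with LPS and fell at least 1.49-fold. Mad2l1 (Mad2) went from 10.23, 10.33 and 10.05 to 9.67 and 9.69, only 1.43-fold (adjusted p = 0.00687), the smallest fall called, yet without overlap.

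Among spindle and cytokinesis genes, Prc1, which bundles midzone microtubules, went from 10.68, 11.00 and 10.60 to 7.90 and 7.77, a 7.61-fold fall. Kif22, the chromokinesin Kid, read 8.08, 8.60 and 8.16 in controls, was undetected at 5.21 and 4.70 on the LPS arrays, and fell at least 5.94-fold. Kif11, the kinesin Eg5 that separates spindle poles, fell at least 1.89-fold, and Nusap1, a microtubule-bundling protein, 3.03-fold. Stmn1, the microtubule destabiliser stathmin, was not called. It read 6.64, 7.34 and 7.09 in controls and 6.24 and 7.50 with LPS, overlapping, with a difference of -0.15 (95% interval -0.87 to 0.56, adjusted p = 0.716). On the chromosome, Top2a, topoisomerase II alpha, was undetected with LPS and fell at least 5.51-fold. Hmgb2, a chromatin protein linked to division, went from 9.45, 9.14 and 8.73 to 7.78 and 7.84, a 2.45-fold fall.

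The fall was also present after interferon. With LPS after IFNγ, against IFNγ alone, 30 of the 34 genes fell (14 replication, 16 mitosis), where 31.7% of all genes were called lower. With LPS after IFNβ, against IFNβ alone, 30 fell (again 14 and 16), where the share of all genes was 34.0%. The class medians were -1.70 for replication and -2.40 for mitosis after IFNγ, and -1.81 and -2.03 after IFNβ. Cdt1 (-0.47, adjusted p = 0.0618), Dut, Pcna and Stmn1 were not called after IFNγ. Mcm6 (-0.60, adjusted p = 0.193), Dut, Pcna and Stmn1 were not called after IFNβ. Tk1, for instance, fell by 3.12 after IFNγ (8.69-fold) by its brightest probe. After IFNβ that probe was undetected with LPS and fell at least 7.05-fold. The second kept probe of Tk1, also called lower, was at -0.68 after IFNγ and -0.85 after IFNβ, so the size is uncertain. Cdc20 by its brightest probe was undetected on all 3 arrays with IFNγ and LPS and fell at least 8.68-fold there. Its 4 kept probes, all called lower, ranged from -3.83 to -1.59. Pcna differed by -0.29 after IFNγ and 0.46 after IFNβ, the latter called higher under cyclic loess at 0.66 (adjusted p = 0.0334).

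Uhrf1 read 9.55, 9.76 and 9.86 with IFNγ and 6.74, 7.47 and 6.82 with IFNγ plus LPS, a 6.55-fold fall. It read 9.21 and 9.73 with IFNβ and 6.42 and 6.59 with IFNβ plus LPS, a 7.80-fold fall. Arrays with and without LPS did not overlap for Uhrf1 in either primed state. Tk1 read 9.09, 8.69 and 8.93 with IFNγ and 6.11, 5.85 and 5.40 with IFNγ plus LPS. Mcm2 was undetected on every LPS array and fell at least 2.82-fold after IFNγ and at least 3.31-fold after IFNβ. These groups did not overlap. Mcm6 fell 5.08-fold after IFNγ, from 9.62, 9.50 and 9.62 to 8.17, 6.84 and 6.69, and Mcm5 fell 6.38-fold after IFNβ, from 10.14 and 10.46 to 7.88 and 7.38. Array 1 of IFNγ plus LPS was the highest of its trio for Mcm6.

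Among mitosis genes, Prc1 read 10.14, 10.76 and 10.56 with IFNγ and 7.65, 7.04 and 7.60 with IFNγ plus LPS, an 8.34-fold fall, and fell 6.63-fold after IFNβ. Plk1 went from 8.01, 9.21 and 8.93 to 5.90, 5.53 and 5.54 after IFNγ, also 8.34-fold, with 1 of 3 LPS arrays detected. Aurka fell 7.66-fold after IFNγ, from 8.65, 8.62 and 8.31 to 5.64, 5.22 and 5.91. All 3 genes kept arrays with and without LPS fully apart. Kif22 was undetected on both arrays with IFNβ plus LPS and fell at least 5.50-fold. Cdc20 went from 9.03 and 9.22 to 6.45 and 5.83 after IFNβ, a 7.91-fold fall. Its 4 kept probes, all called lower, ranged from -2.98 to -1.46. Cenpa went from 13.14 and 13.04 to 10.58 and 10.26, a 6.37-fold fall, again without overlap.

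**Figure D2:**
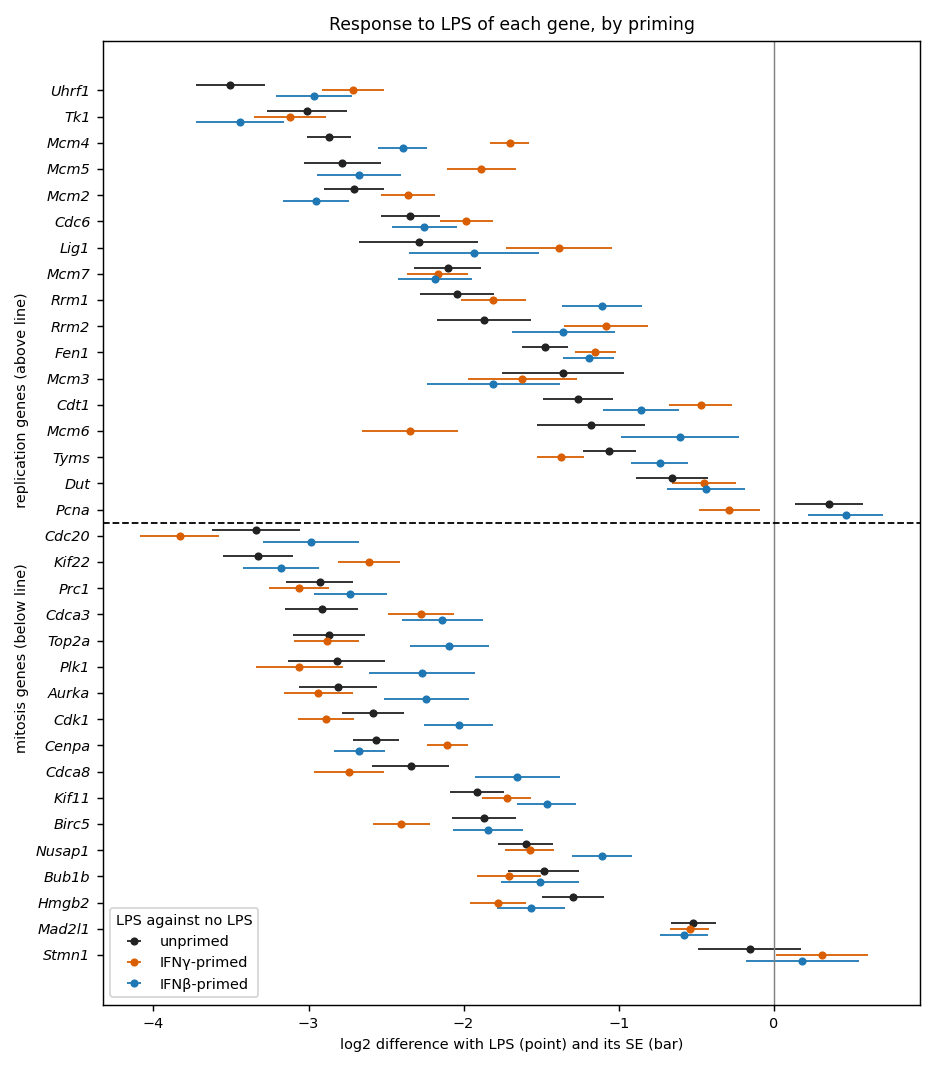
Log2 difference with LPS (points) and its SE (bars) for each of the 34 genes, with replication genes above the dashed line and mitosis genes below, in unprimed (black), IFNγ-primed (orange) and IFNβ-primed (blue) cells. Points lie left of 0 for nearly all genes in each priming state; Pcna and Stmn1 lie around 0, the orange point of Mcm4 lies to the right of the black one and that of Mcm6 to the left.

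The mitosis median was below the replication median in each comparison of LPS with its own group without LPS, by an amount that depended on the genes counted. Over the genes detected on all 15 arrays, 10 for replication and 9 for mitosis, a restriction added after the data were seen, the medians with LPS alone were -1.76 and -1.87, a difference of -0.11 in place of -0.52. Under the same restriction the difference, mitosis minus replication, was -0.56 in place of -0.70 after IFNγ and -0.69 in place of -0.22 after IFNβ. With LPS alone and each undetected gene set at its bound, the medians of the 17 genes were -1.62 and -2.46. On each array the replication median, as a difference from the control mean, lay between -2.14 and -1.56 with LPS (7 arrays) and between -0.37 and 0.17 without (8 arrays). For mitosis the ranges were -2.82 to -1.93 and -0.20 to 0.19. No array with LPS reached the range of arrays without it in either class.

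**Figure D3:**
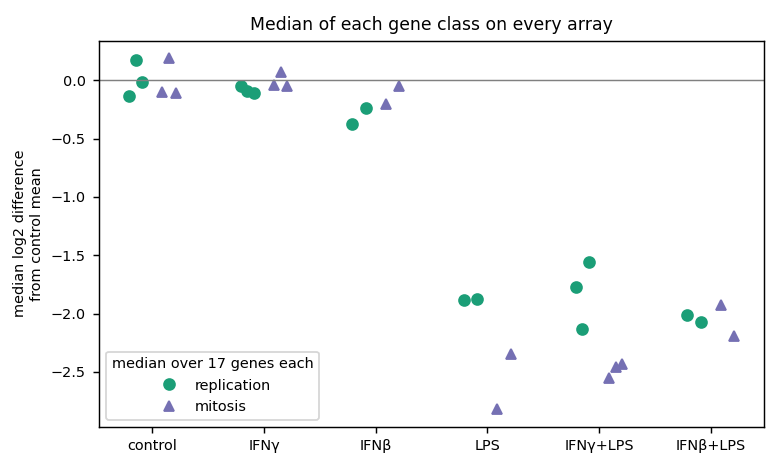
Median log2 difference from the control mean over the 17 replication genes (circles) and the 17 mitosis genes (triangles), 1 point per array and class, by group. With LPS the replication medians run from -2.14 to -1.56 and the mitosis medians from -2.82 to -1.93, apart from all arrays without LPS.

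IFNγ alone lowered 5 of 34 (Mcm4, Mcm5, Cdt1, Cenpa and Cdca3) and raised 2 (Fen1 and Hmgb2), where 14.6% of all genes were called lower and 11.5% higher, so the shares of members called were close to or below those of all genes. T and NK cell markers summed to 795 to 888 with IFNγ. Of these Cd28 was lower by limma (-1.89, adjusted p = 2.02e-07), and Cd3e and Klrb1c were detected on no array of either group. B cell markers summed to 499 to 693 with IFNγ, against 1210 to 1320 in controls. Of the 2 detected on every array of both groups, Blnk was lower by limma (-1.36, adjusted p = 0.000547). The other, Cd79b, was not called (0.13, adjusted p = 0.663). Dendritic cell markers, 4 of 7 with a probe, summed to 184 to 230 in controls and 460 to 475 with IFNγ. Batf3 (1.52, adjusted p = 7.83e-05) and Clec9a (1.46, adjusted p = 6.12e-05) were higher by limma. Clec9a was undetected in controls, and Ccr7 and Siglech were detected on no array of either group. The part of these cell types was not tested. The medians were -0.11 for replication and -0.01 for mitosis, against -0.07 for all genes. Mcm4 read 10.30, 10.53 and 10.51 with IFNγ, all below its controls of 10.95 to 11.10, a fall (-0.59, SE 0.127, adjusted p = 0.00332) that was called under all 19 alternatives. Mcm5 (9.22, 10.16 and 9.94) fell by 0.72 (adjusted p = 0.0259), and Cdt1 (9.42, 10.00 and 9.88) fell by 0.71 (adjusted p = 0.0176). Array 1 is the lowest of each trio. Without IFNγ array 1 the differences were -0.45 (adjusted p = 0.111) for Mcm5 and -0.53 (adjusted p = 0.0818) for Cdt1, so these calls rest on it in part. Both were also lost without control array 2 (adjusted p = 0.06 for Mcm5 and 0.0556 for Cdt1) or control array 3 (0.098 and 0.0623).

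Cdca3 (9.28, 9.99 and 9.95) fell by 0.63, with 1 of its 2 kept probes called and the other at -0.25. Cenpa (12.77, 12.93 and 12.83) fell by 0.44. Cdca3 was not called without control array 1 (adjusted p = 0.107), control array 2 (0.137) or IFNγ array 1 (-0.40, 0.177). Cenpa was not called without control array 1 (adjusted p = 0.0665), control array 3 (0.0931), IFNγ array 1 (0.064) or IFNγ array 3 (0.0623). Cenpa was not called under median scaling, at -0.26 (adjusted p = 0.247), or under cyclic loess, at -0.23 (adjusted p = 0.218). Hmgb2 rose to 9.77, 9.68 and 9.85, above its controls, by 0.66 (adjusted p = 0.0136), and by 0.47 (adjusted p = 0.0746) without control array 3. Fen1 rose to 11.21, 10.95 and 11.11, by 0.40 (adjusted p = 0.0397), a call that 10 of 19 alternatives did not give, among them leaving out control array 1 (adjusted p = 0.166), control array 3 (0.0859), IFNγ array 1 (0.116) or IFNγ array 3 (0.0936). The count of 7 became 2 without IFNγ array 1, 2 without control array 3, 4 without control array 1, and 4 with median scaling or cyclic loess.

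IFNβ alone gave 0 calls among the 34 genes by limma, where 1.12% of all genes were called in either direction. At an unadjusted p under 0.05 were 3 of the 34 (Mcm4, Rrm2 and Tyms), and 632 of all 7669 genes. The replication median was -0.30 and the mitosis median -0.12, against 0.00 for all genes. Mcm4 read 10.58 and 10.73, below each control, a difference of -0.37 (95% interval -0.68 to -0.07, adjusted p = 0.439). Tyms, at 8.14 and 8.53, differed by -0.45 (adjusted p = 0.435), and Rrm2, at 6.96 and 6.40, by -0.69 (adjusted p = 0.56). Both lay below the lowest control.

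Between the interferons, Cdt1 was lower with IFNγ than with IFNβ (-0.72, adjusted p = 0.0352) and Fen1 (0.70, adjusted p = 0.00392) and Hmgb2 (0.64, adjusted p = 0.0369) were higher, where 11.0% of all genes were lower and 9.58% higher. Fen1 read 10.45 and 10.33 with IFNβ, below all 3 IFNγ arrays. The count of 3 became 1 without IFNγ array 1, IFNγ array 3 or IFNβ array 1, and 0 without IFNβ array 2. Cdt1 was called in none of those 4 fits (adjusted p from 0.0522 to 0.284), Hmgb2 in none without any 1 of the 5 arrays (0.0531 to 0.244), and Fen1 was lost only without IFNβ array 2 (0.64, adjusted p = 0.0533).

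Under LPS, priming with IFNγ changed 3 of the 34 genes against LPS alone. Mcm6 was lower, and Mcm4 and Fen1 were higher, where 5.97% of all genes were lower and 6.81% higher. Neither share of the members called was above that of all genes. Mcm6 read 8.17, 6.84 and 6.69 with IFNγ plus LPS against 8.48 and 9.04 with LPS alone, a 2.89-fold fall (-1.53, SE 0.346, adjusted p = 0.0109). All 3 of its kept probes were called lower, by 1.30 to 1.53, and array 1 lies nearer the unprimed arrays than its companions do. Fen1 read 9.88, 10.05 and 9.89 against 9.11 and 9.32, 1.65-fold higher (adjusted p = 0.00604). Mcm4 read 8.74, 8.76 and 8.73 against 8.27 and 8.06, 1.49-fold higher (adjusted p = 0.0168). Neither overlapped. Mcm6 was not called without LPS array 2, at -1.25 (adjusted p = 0.114), nor was Mcm4, at 0.47 (adjusted p = 0.145), and Fen1 was not called without LPS array 1, at 0.63 (adjusted p = 0.0736). Without IFNγ plus LPS array 2 Mcm4 was at 0.57 (adjusted p = 0.0542). The count was 0 when only the groups compared were fitted, 1 on the slide alone, 1 without LPS array 2, and 6 without IFNγ plus LPS array 1.

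IFNβ priming under LPS gave 0 calls by limma, where 0.561% of all genes were called in either direction. At an unadjusted p under 0.05 were 2 of the 34 (Tk1 at -0.94, Top2a at 0.75), and 945 of all 7669 genes. Mcm6, at 8.79 and 9.29, overlapped the LPS arrays. Set directly against IFNβ plus LPS, IFNγ plus LPS had lower Mcm6 (-1.80, adjusted p = 0.00354), Plk1 (-1.40, adjusted p = 0.00888) and Cdc20, and higher Fen1 (0.74, adjusted p = 0.00452) and Mcm4 (0.48, adjusted p = 0.0401). Of all genes 6.58% were lower and 6.83% higher. Plk1 read 5.90, 5.53 and 5.54 after IFNγ, with 1 of 3 arrays detected, and 7.57 and 6.56 after IFNβ, without overlap. Cdc20, undetected after IFNγ, was at least 1.21-fold lower (adjusted p = 0.0335), and 1 of its 4 probes was called. Without IFNβ plus LPS array 1 Plk1 was at -0.90 (adjusted p = 0.105), Cdc20 at -0.68 (adjusted p = 0.214) and Mcm4 at 0.34 (adjusted p = 0.225). Without IFNβ plus LPS array 2 Mcm6 was at -1.55 (adjusted p = 0.051) and Mcm4 at 0.62 (adjusted p = 0.0505). Cdc20 was also not called without IFNγ plus LPS array 1 (adjusted p = 0.0602) or array 2 (0.0935), nor Mcm4 without array 2 (0.102) or array 3 (0.0921). The count of 5 became 2 and 3 without these IFNβ plus LPS arrays, and 0 when only the groups compared were fitted.

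**Figure D4:**
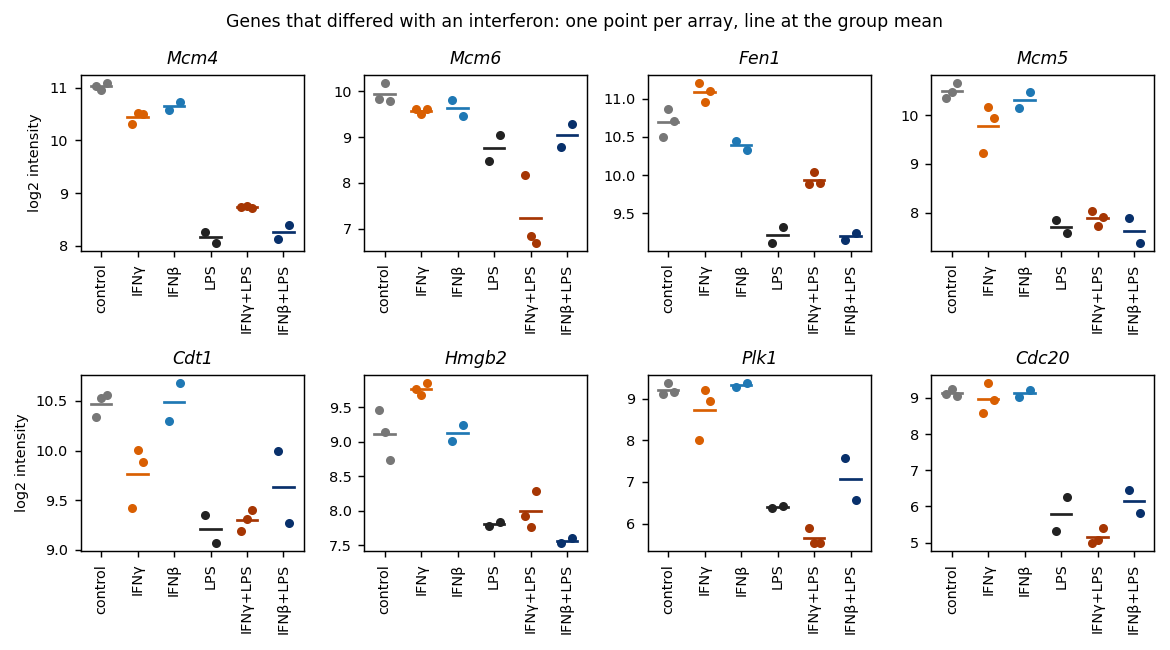
Log2 intensity of 8 genes called in an interferon comparison, 1 point per array and a line at each group mean, for the 6 groups. Mcm4 is below control with IFNγ but above LPS alone with IFNγ plus LPS; Mcm6 has 1 array with IFNγ plus LPS at 8.17 and the others at 6.84 and 6.69.

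The effect of IFNγ on Mcm4 differed between cells with and without LPS. The interaction, the IFNγ effect with LPS minus that without, was 1.16 (SE 0.191, 95% interval 0.75 to 1.57, adjusted p = 0.000989), where 12.7% of all genes had an interaction called in either direction. IFNγ lowered Mcm4 without LPS and raised it with LPS, so LPS lowered it 3.26-fold after IFNγ and 7.29-fold without interferon. No other member was called. Mcm5 (0.90, adjusted p = 0.0948), Uhrf1 (0.79, adjusted p = 0.101), Cdt1 (0.79, adjusted p = 0.102) and Mcm6 (-1.17, adjusted p = 0.119) did not pass. The count of 1 became 2 without IFNγ plus LPS array 1, IFNγ plus LPS array 2 or IFNγ array 2. For IFNβ 0 interactions were called by limma, where 0.156% of all genes were called. At an unadjusted p under 0.05 were 4 of the 34, and 629 of all 7669 genes. The IFNβ interaction of Mcm4 was 0.47 (adjusted p = 0.602).

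Regulators upstream of these genes were called in both directions with LPS, as were all genes (34.0% lower and 21.2% higher). Among G1 cyclins and kinases 3 of 8 fell and 1 rose. Ccnd1, cyclin D1, read 13.16, 13.38 and 13.07 in controls and 11.32 and 11.35 with LPS, a 3.65-fold fall, while Ccnd2, cyclin D2, read 6.07, 6.67 and 5.96 and then 11.05 and 11.15, 29.2-fold higher (adjusted p = 1.47e-09). Both D cyclins activate Cdk4 and Cdk6, and their arrays moved oppositely. Cdk2, the S-phase kinase, fell 4.26-fold, and Ccne2, cyclin E2, was undetected with LPS and fell at least 3.39-fold.

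Of 10 E2F and pocket protein genes 5 fell and 3 rose. The E2F genes did not move together. E2f1 (10.05 to 7.76 as group means, adjusted p = 1.88e-07 by limma) and E2f2 (at least 4.05-fold) fell, and Rb1 fell by 0.86. E2f3 (7.33 to 8.30) and E2f5 (8.25 to 10.44) were higher with LPS as group means. Rbl1, which encodes p107, a pocket protein of DREAM, read 7.61, 7.98 and 8.05 in controls and 10.35 and 10.47 with LPS, 5.77-fold higher. Of 6 Cdk inhibitor genes 2 rose and 2 fell. Cdkn1a, which encodes p21, read 12.43, 12.26 and 12.42 and then 14.09 and 14.05, 3.24-fold higher, and Cdkn2c, which encodes p18, fell by 2.03. Of 4 MuvB, B-Myb, FoxM1 and Myc genes 1 fell and 1 rose. Mybl2, which encodes B-Myb, was undetected with LPS and fell at least 1.66-fold, while Foxm1 differed by -0.04 (adjusted p = 0.808).

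With IFNγ alone, Ccnd2 rose to 9.39, 9.39 and 9.53 (9.19-fold, adjusted p = 1.26e-07) and Rbl1 to 9.54, 9.57 and 9.49 (3.15-fold), a comparison in which 7 of the 34 replication and mitosis genes were called. Cdkn1a rose 1.34-fold, and Mybl2 fell by 0.63 (adjusted p = 0.00319). Cdkn1c, which encodes p57, read 9.40, 9.60 and 9.34 in controls and was undetected on all 3 IFNγ arrays, at least 14.9-fold lower (adjusted p = 9.73e-06). With IFNβ, Mybl2 fell by 0.92 (adjusted p = 0.00599), and Ccnd2 (0.33, adjusted p = 0.922) and Rbl1 (-0.02, adjusted p = 0.998) were not called.

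**Figure D5:**
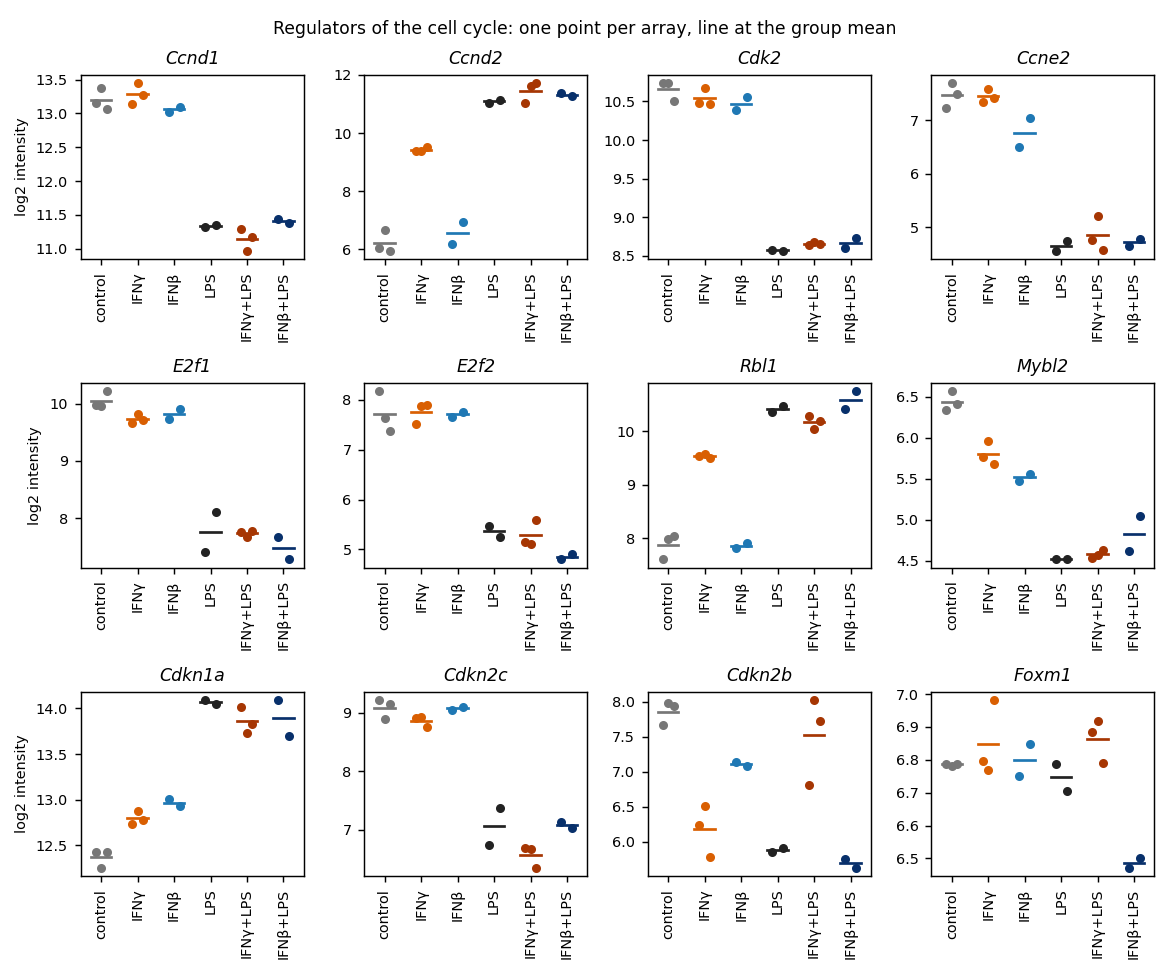
Log2 intensity of 12 cell cycle regulators, 1 point per array and a line at each group mean, for the 6 groups. Ccnd2 and Rbl1 are higher with IFNγ and with LPS, Cdkn1a is highest with LPS, and Ccnd1, Cdk2, E2f1 and E2f2 are lower in the 3 LPS groups.

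Other genes of the same processes went the same way with LPS in most cases. These lists, like the genes above, were chosen with earlier results of these data known, so they are not an independent check. Of 33 other replication genes tested, 24 fell and 2 rose (median -0.99), where 34.0% of all genes were called lower and 21.2% higher. Cdca7, an activator of the remodeller Hells in DNA methylation, fell at least 12.8-fold, Dnmt1, the maintenance methyltransferase, fell by 2.62 (adjusted p = 5.07e-08), and Orc4, an origin recognition subunit, and Timeless, a fork protection factor, rose by 0.76 and 0.85. Of 35 other mitosis genes, 26 fell and 3 rose (median -1.31). Anln, anillin of the contractile ring, fell at least 10.5-fold. The 3 that rose were Pttg1, the securin gene, undetected in controls and at least 4.28-fold higher (adjusted p = 6.83e-07), Tpx2, an activator of Aurora A, higher by 1.25, and Spc24, a kinetochore subunit, higher by 1.02. With IFNγ alone 1 of the other replication genes fell, Cdca7 (-1.93, adjusted p = 2.28e-06), and 4 rose, and 2 of the other mitosis genes fell and 4 rose, where 14.6% of all genes were called lower and 11.5% higher. IFNβ alone gave 0 calls in either list by limma.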

How the data were processed

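The table the authors deposited before normalization gives each probe's mean bead intensity (linear) and its detection p-value, per the file headers, with no scanner software named. The authors' deposited log2 values were used as an alternative (lowest per-array correlation 0.9998). Groups came from the sample titles. Intensities were background-corrected with limma 3.58.1 in R 4.3.3 (normexp, background from the detection p-values, offset 16), then quantile-normalized as log2 values. Probes stayed in if at least 1 group had detection p under 0.01 on all its arrays (11117 of 15978); 14994 probes had 1 symbol, 0 several and 984 none. Limma fitted 6 group means over 15 arrays, and 11 comparisons were adjusted by Benjamini-Hochberg over 7669 genes and called under 0.05, on both sides. Where no array of a group detected a gene, "at least" folds used as that group's level the dimmest detected probe per array, or the gene's reading if brighter. Per-array values were given for the brightest gene of each role and for up to 4 called genes of each class and direction with the largest differences, all fixed regulators could be named, and up to 3 called genes of each other list each way. The members and lists were chosen with earlier results of these data known. The fit was tested on simulated data. Same-numbered arrays did not deviate together (33 pairs, r from -0.44 to 0.22, 5 over 0.1), so the numbers were not treated as pairs.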

Additional observations from a re-analysis of the deposited data

Results flagged for a closer look

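Of all genes tested, 12.7% had an interaction of IFNγ with LPS called in either direction, a larger share than among the 34 genes. The effect of IFNγ on Mcm4 differed between cells with and without LPS by 1.16 log2 units (SE 0.191, adjusted p = 0.000989 by limma), which was the only interaction called among the 34 genes. It was called under all 23 alternatives, with values from 0.98 to 1.27. Mcm4 was read from 1 kept probe of the 3 listed, so no second probe bears on it.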

How the results depend on the processing

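The fall with LPS kept its direction and its call for the 4 replication and 4 mitosis genes with the largest falls named in each LPS comparison, under each alternative run. The count of 32 genes became 17 of 19 when genes had to be detected on all 15 arrays, which leaves fewer genes to test, and 30 to 32 when 1 array was left out. For LPS after IFNγ the counts were 17 of 19 and 30 to 31, and after IFNβ 16 of 19 and 27 to 31. For IFNγ alone the count of 7 became 4 with median scaling, 4 with cyclic loess, and 2 to 7 without 1 array. For IFNγ plus LPS against LPS the count of 3 became 0 with only the groups compared, 1 on the slide alone, and 1 to 6 without 1 array. For IFNγ against IFNβ the count of 3 became 5 without background correction, 1 with median scaling, 1 without a detection filter, and 0 to 2 without 1 array. Between the interferons under LPS the count of 5 became 0 with only the groups compared, 2 on the slide alone, and 2 to 5 without 1 array. For the IFNγ interaction the count of 1 became 3 without background correction and 1 to 2 without 1 array. Leaving out array 1 of IFNγ and of IFNγ plus LPS together, chosen after seeing the data, gave 2 for IFNγ alone, 7 for IFNγ plus LPS against LPS, 1 for IFNγ against IFNβ and 2 for the IFNγ interaction. The cause of these changes was not tested. With the replicate number as a block the counts were 6 for IFNγ alone, 32 for LPS, 3 for IFNγ plus LPS against LPS, 30 for LPS after either interferon, 2 for IFNγ against IFNβ and 4 between them under LPS, and no count moved by over 1.5 times. The fit of all 15 arrays shares 1 spread per gene, and leaving 1 array in a group assumes that it varies like the others. Signal near background limits Mcm2, Mcm7, Cdc6, Rrm2, Dut, Bub1b, Kif11, Kif22 and Top2a, undetected on both arrays of LPS alone.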
